A study of Mus musculus with 32 samples.

Results

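Colony-stimulating factors and stem cell factor are secreted or membrane-held proteins that keep blood-forming cells and their descendants alive and make them divide. Their 5 genes in the mouse are Csf1, Csf2, Csf3, Il34 and Kitl, and these were taken by symbol out of 55414 gene IDs in a table of raw counts from cultured cardiac fibroblasts. All 5 IDs were in the table and 5 of 5 passed the filter on low counts that left 16760 genes for testing. Csf2 and Csf3 passed it only through the libraries given interleukin-1 beta, so their presence among the tested genes follows from their rise there.

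The fibroblasts came from Pkm2fl/fl mice on C57BL/6J, in which an exon of the pyruvate kinase gene Pkm is flanked by recombinase sites, and they were used at passage 1. Every group carried that floxed allele. Cells were transduced with LacZ as the control or with the recombinase iCre, and the vector that carried them is not named in the sources used here. They then stayed in the condition the titles call SS or received bFGF at 20 ng/ml, IL-1b at 15 ng/ml or TGFb at 10 ng/ml for 24 h. The 8 groups of LacZ or iCre by SS, bFGF, IL-1b or TGFb held 4 libraries each, numbered 1 to 4 in the titles, and poly(A) RNA was sequenced. Groups were read from the titles, since for the 16 LacZ libraries the tag for treatment names another condition. The shared protocol text also speaks of TAK1fl/fl cells and of a TNFa arm, and says that stimuli were given under serum starvation, and describes a growth medium that itself held bFGF at 20 ng/ml. No label says whether a number stands for a mouse, so p-values measure the spread between libraries of unstated origin.

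Library totals ran from 20736203 to 34995038 counts. Pkm averaged 786, 1075, 1993 and 1538 CPM (counts relative to library size, scaled by TMM factors) in LacZ SS, bFGF, IL-1b and TGFb, and 533, 780, 1392 and 1107 CPM in the iCre groups in the same order. Nos2, the inducible nitric oxide synthase and a known target of IL-1b, averaged 257 and 276 CPM in the LacZ and iCre libraries with IL-1b, while without IL-1b its group means were 0.371 to 0.518 CPM. Spry4, a target of fibroblast growth factor signals, was highest with bFGF (117 and 93.6 CPM against 12.7 to 19.8), and Pmepa1, a target of TGFb, with TGFb (1302 and 1090 CPM against 160 to 225). Nos2, Spry4 and Pmepa1 were taken from earlier results of these data, so they are no independent check of the groups read from titles. The 9 fibroblast markers summed to 18741 to 64874 CPM per library. The 15 leukocyte and macrophage markers summed to 35.6 to 1010 CPM, with Lyz2, a lysozyme of myeloid cells, as the most abundant. Of these 15, the T-cell gene Cd3e had 1 read in all 32 libraries and the B-cell gene Cd79a had 33. With IL-1b in LacZ, of the tested markers 1 of 9 for fibroblasts rose and 0 fell, 3 of 6 for mural cells fell, as did 1 of 6 endothelial, 1 of 3 cardiomyocyte and 1 of 2 mast cell markers, and 0 of 4 mesothelial, 0 of 2 Schwann cell and 0 of 13 leukocyte markers were called. With TGFb in LacZ, 1 fibroblast marker rose and 5 fell, 1 mural marker rose and 2 fell, 1 endothelial marker rose and 2 fell, 1 cardiomyocyte, 1 mast cell, 1 Schwann cell and 1 leukocyte marker fell, and no mesothelial marker was called. In bulk RNA, fewer cells of a type and less RNA per cell cannot be told apart.

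Csf1, or macrophage colony-stimulating factor, and Il34 are the known ligands of the receptor Csf1r, which macrophages and their precursors need to survive. Csf2 (GM-CSF) and Csf3 (G-CSF) drive the output and activation of granulocytes and macrophages, and fibroblasts are a textbook source of both after an inflammatory stimulus. Kitl, or stem cell factor, binds the receptor Kit on blood progenitors, mast cells and germ cells. Csf2 and Csf3 belong to the cytokines whose messages are short-lived because of AU-rich repeats behind the coding region, which binding proteins recognise.

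Sequences are shown for the stretch before the start site of Csf1, the most abundant member, and for the AU-rich repeats of the messages. No test links either to a level. The first is the 250 bases upstream of the RefSeq start of Csf1, GRCm38.p6, chr3:107760470-107760719, minus strand. Capitals mark matches to GGG and CC with any 5 bases between them, a loose form of the site bound by NF-kB factors, searched on both strands.
Csf1 upstream: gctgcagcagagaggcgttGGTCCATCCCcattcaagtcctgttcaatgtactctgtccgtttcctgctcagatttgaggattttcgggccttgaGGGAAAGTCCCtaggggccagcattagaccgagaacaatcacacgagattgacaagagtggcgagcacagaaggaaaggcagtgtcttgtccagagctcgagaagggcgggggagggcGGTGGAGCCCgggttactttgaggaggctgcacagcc
The window held 4 matches, of which GGGAAAGTCC at -155 and the opposite-strand GGAAAGTCCC at -154 overlap by all but 1 base. Of 32851 upstream windows of that length, 45.8% held at least 1 match, so a match is common. A match is a run of letters and not a shown binding site. By symbol 3 of the 5 members matched the RefSeq table, and Csf3 and Il34 did not. The Kitl window held 3 matches and the Csf2 window 0. Motifs named AP-1, C/EBP, CK-1 and TATA were searched as well, with no match in the Csf1 window. Of these, the Kitl window held 1 match to TATA and the Csf2 window 1 to C/EBP. Those windows are not printed, because the first covers the GENCODE start of Kitl and the second ends 233 bases from that of Csf2. For the same reason their matches are not set against the IL-1b results.

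The AU-rich repeats were read from the longest coding transcript of each gene in GENCODE M21 on GRCm38. They are shown because Csf2 and Csf3 were the members nearest to 0 without IL-1b. In Csf2 the run lies behind the stop codon at chr11:54247326-54247352, minus strand, with overlapping copies of ATTTATTTA in capitals.
Csf2 repeat: aatATTTATTTATTTATTTATTTAttt
In Csf3 the densest stretch lies behind the stop codon at chr11:98702989-98703016, plus strand, with ATTTA in capitals.
Csf3 repeat: tttATTTAtctctATTTAatATTTAtgc
In Kitl the single copy of ATTTATTTA, in capitals, lies behind the stop codon at chr10:100097949-100097963, plus strand.
Kitl repeat: ttgATTTATTTAtct
The 800-base Csf2 transcript held 10 copies of ATTTA and 5 of ATTTATTTA, a number that 0.16% of 21877 coding genes reached. The Csf3 transcript held 6 and 0, Kitl 17 and 1 over 5648 bases, Csf1 4 and 0, and Il34 2 and 0. At least 1 copy of the longer repeat was found in 6.47% of coding genes.

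Per kilobase of exon, Csf1 was the most abundant member in every group. In LacZ SS it stood at 136 ± 33.1 CPM per kb (SD, n = 4), with Kitl at 10.1 ± 5.52 and Il34 at 9.24 ± 5.81. Csf3 and Csf2 stood at 0.0191 and 0.0136 CPM per kb there, from 3 reads and 1 read over 4 libraries. In LacZ IL-1b the same scale gave 432 ± 109 for Csf1, 18.2 ± 6.43 for Kitl, 7.15 ± 3.05 for Csf3, 6.28 ± 3.03 for Il34 and 0.679 ± 0.295 for Csf2. Csf3 thus went from near absence to the range of Il34, while Csf2 stayed about an order of magnitude below.

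**Figure D1:**
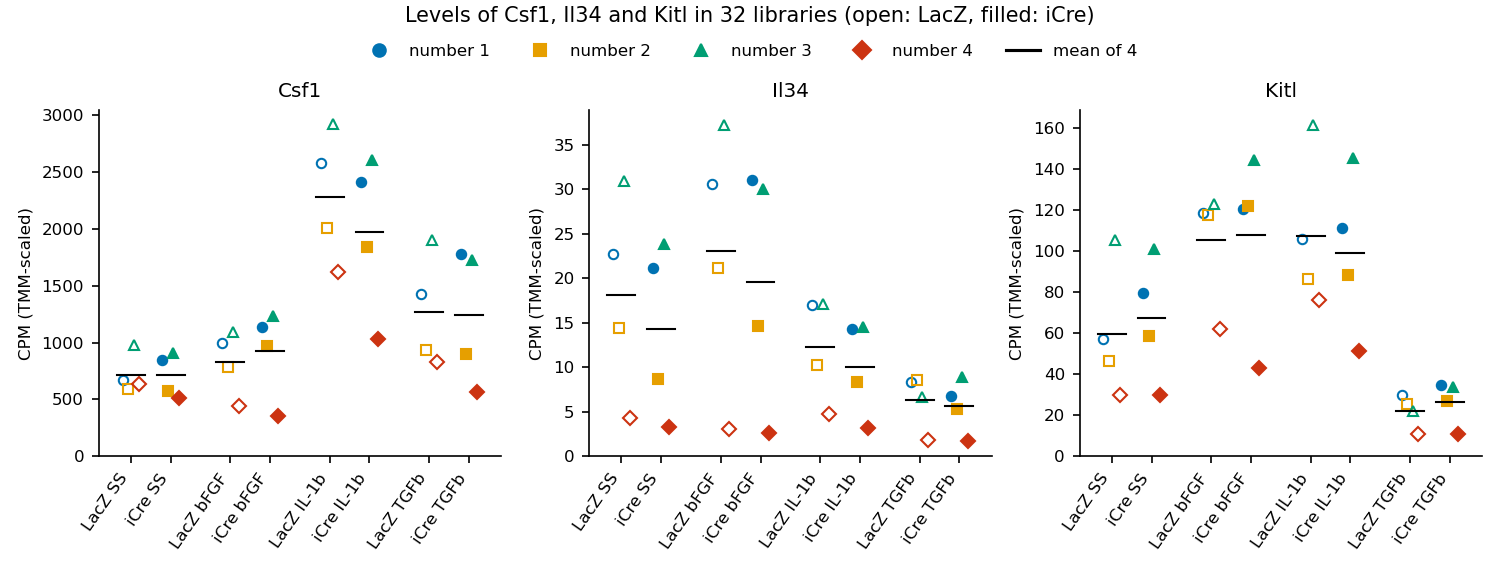
Levels of Csf1, Il34 and Kitl in CPM, each on its own linear axis from 0, for the 8 groups. Each point is 1 library, with colour and shape for its number, open for LacZ and filled for iCre, and bars are means of 4. The 8 number 4 libraries lie at the bottom of every group for Il34 (1.78 to 4.82 CPM), and both TGFb groups lie lowest for Kitl.

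With IL-1b, Csf1, Csf2 and Csf3 were higher under both vectors and passed the test. Over all tested genes 19.2% were called in LacZ (11.1% higher, 8.13% lower) and 15.7% in iCre (8.88% higher, 6.84% lower). The IL-1b and SS libraries of Csf1, Csf2 and Csf3 did not overlap, and neither did those of 24.2% and 19.1% of all tested genes. Since Csf2 and Csf3 were tested only because they were high with IL-1b, the count of 3 members is not read against these shares. In a fit with no filter on low counts, adjusted p was 0.000561 and 0.000203 for Csf2 and 2.67e-08 and 1.31e-08 for Csf3 (edgeR, LacZ first).

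Csf1 (ENSMUSG00000014599, chr3:107741048-107760469, minus strand, GRCm38) stood at 672, 590, 975 and 633 CPM in LacZ SS libraries 1 to 4. With IL-1b they read 2574, 2008, 2915 and 1620 CPM. All 4 IL-1b libraries were above all 4 SS libraries, and number 4 was the lowest of the IL-1b group. The rise was 1.67 ± 0.39 on the log2 scale (estimate ± SE), a 3.18-fold difference (edgeR, adjusted p = 0.0032). In iCre cells the SS libraries had 847, 578, 910 and 509 CPM and the IL-1b libraries 2405, 1842, 2604 and 1035 CPM. Again no library of one group reached the other, with number 4 lowest in both. Csf1 rose there by 1.47 ± 0.39 on the log2 scale, or 2.77-fold (edgeR, adjusted p = 0.0100).

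Csf3 (ENSMUSG00000038067, chr11:98701263-98703629, plus strand), the factor of neutrophil production, was counted 0, 0, 0 and 3 times in LacZ SS libraries 1 to 4. With IL-1b the raw counts were 232, 179, 188 and 445. In iCre SS they were 2, 0, 1 and 1, and in iCre IL-1b 248, 401, 168 and 916. Number 4 gave the highest count with IL-1b under both vectors, the opposite of Csf1, whose lowest IL-1b library was number 4. The summed counts of 1044 against 3 in LacZ, scaled for depth, gave a ratio of 327 (95% exact interval 112 to 1590, counting error only). In iCre 1733 against 4 gave a ratio of 389 (152 to 1430). Both passed the test (edgeR, adjusted p = 4.34e-08 in LacZ and 2.20e-08 in iCre). The level with IL-1b was 10.1 ± 4.31 CPM in LacZ and 13.5 ± 9.28 CPM in iCre (SD, n = 4).

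Csf2 (ENSMUSG00000018916, chr11:54247271-54249667, minus strand), the granulocyte-macrophage factor, was counted 1, 0, 0 and 0 times in LacZ SS and 17, 7, 23 and 10 times in LacZ IL-1b. In iCre it was counted 0, 0, 2 and 0 times in SS and 23, 24, 28 and 26 times with IL-1b. Every IL-1b library was above every SS library, though the highest held 28 reads. Scaled for depth, 57 against 1 read gave a ratio of 53.6 (95% exact interval 9.24 to 2154) in LacZ, and 101 against 2 gave 45.4 (12.2 to 380) in iCre. The rise passed the test in both (edgeR, adjusted p = 0.000301 and 0.000111). The antisense gene Gm12223 overlaps Csf2 by 2068 bases and had 30 and 48 reads in the LacZ and iCre IL-1b groups and 0 to 6 in the others. That overlap is of whole genes, introns included. Since the strand setting of the counting is not given, it is not known how reads there were assigned, or whether some were left out. Il3, a blood-cell growth factor gene 15636 bases from Csf2, was at 0 in all 32 libraries.

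**Figure D2:**
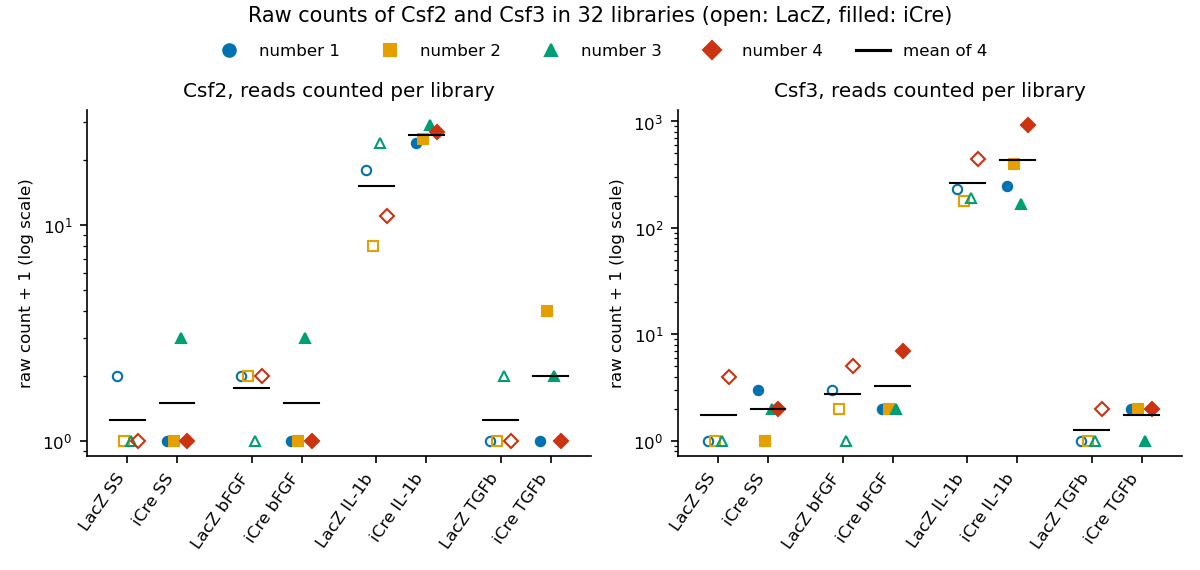
Raw counts of Csf2 and Csf3 plus 1, on a log axis, in the 32 libraries by group. Points are libraries by number (open LacZ, filled iCre) and bars are means of 4. The 8 IL-1b libraries hold 7 to 28 reads of Csf2 and 168 to 916 of Csf3, and the other 24 hold at most 3 and 6.

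Outside IL-1b, Csf2 had 13 reads over 24 libraries, 15 of them at 0, and Csf3 had 27 reads, with 9 libraries at 0. No library of these 24 exceeded 3 reads of Csf2 or 6 of Csf3. For Csf3 the ratio of LacZ bFGF to SS was 2.10, from 7 reads against 3 (95% exact interval 0.480 to 12.6), and that of LacZ TGFb to SS 0.368, from 1 read against 3 (0.00700 to 4.58). Both intervals lie below the 112 to 1590 found with IL-1b, while smaller changes could not be seen at this depth.

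Il34 (ENSMUSG00000031750, chr8:110741829-110805924, minus strand), the other Csf1r ligand, was not called with IL-1b. It differed by -0.56 ± 0.74 on the log2 scale in LacZ (edgeR, adjusted p = 0.665) and by -0.50 ± 0.74 in iCre (adjusted p = 0.722). Il34 was lower with IL-1b in 3 of 4 LacZ pairs of the same number and in 4 of 4 iCre pairs. Kitl (ENSMUSG00000019966, chr10:100015630-100100416, plus strand) was higher with IL-1b in 4 of 4 pairs under both vectors. Its LacZ libraries read 57.4, 46.6, 106 and 29.9 CPM in SS and 106, 86.6, 162 and 76.5 CPM with IL-1b. The groups overlap, as SS number 3 lies within the IL-1b range, while each number rose from its own SS value. The unpaired difference was 0.85 ± 0.44 on the log2 scale (edgeR, adjusted p = 0.192). With the replicate number as a block in the fit, it was 0.94 ± 0.18 (adjusted p = 0.000262), and in iCre 0.56 ± 0.44 (adjusted p = 0.437) became 0.59 ± 0.18 (adjusted p = 0.0145). Under the block 32.3% of all genes were called with IL-1b in LacZ and 29% in iCre.

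With TGFb, Kitl was the 1 member of 5 called, lower under both vectors, against 46.3% of all genes called in LacZ (22.9% lower, 23.4% higher) and 38.3% in iCre (18.1% lower, 20.2% higher). The TGFb and SS libraries of a member overlapped in 5 of 5 cases under both vectors, while 41.4% and 30.3% of all genes did not overlap. With the replicate block the count was 3 of 5 under both vectors, with Csf1 higher and Il34 and Kitl lower, against 58.4% and 51.6% of all genes. Csf2 and Csf3, with 1 to 4 reads in each SS and TGFb group, could hardly be called lower at that depth. The counts out of 5 are therefore not read against these shares.

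Kitl read 30.0, 25.7, 22.1 and 11.1 CPM in LacZ TGFb libraries 1 to 4, against 57.4, 46.6, 106 and 29.9 CPM in LacZ SS. The groups overlap narrowly, since SS number 4 lies just under TGFb number 1, and each number fell from its own SS value. Kitl fell by 1.43 ± 0.45 on the log2 scale, to 0.370 of SS (edgeR, adjusted p = 0.0102). In iCre it read 34.8, 27.3, 33.9 and 10.9 CPM with TGFb and 79.7, 59.0, 101 and 29.9 CPM in SS. There Kitl fell by 1.34 ± 0.44 on the log2 scale, to 0.396 of SS (edgeR, adjusted p = 0.0188). The groups overlap there too, through SS number 4. Without LacZ SS number 3 the LacZ value of Kitl was -1.01 (edgeR, adjusted p = 0.0695). The iCre value was -1.10 (adjusted p = 0.0615) without iCre SS number 3 and -1.07 (adjusted p = 0.0614) without iCre TGFb number 4.

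Il34 read 22.7, 14.4, 30.9 and 4.34 CPM in LacZ SS and 8.39, 8.57, 6.65 and 1.81 CPM in LacZ TGFb. In iCre it read 21.2, 8.66, 23.9 and 3.32 CPM in SS and 6.77, 5.29, 8.90 and 1.78 CPM with TGFb. SS number 4 lay inside the TGFb range under both vectors, so the groups overlap, yet Il34 was lower with TGFb in all 8 pairs. The unpaired difference was -1.51 ± 0.76 on the log2 scale in LacZ (edgeR, adjusted p = 0.106) and -1.33 ± 0.76 in iCre (adjusted p = 0.173). With the replicate block it was -1.39 ± 0.25 (adjusted p = 5.01e-05) and -1.21 ± 0.25 (adjusted p = 0.000297). Without the 8 number 4 libraries and with no block, it was -1.51 (edgeR, adjusted p = 0.00289) and -1.35 (adjusted p = 0.0072). The antisense genes Gm15894 and Gm15895 overlap Il34 and had 179 and 97 reads in all 32 libraries, few beside the 540 to 2369 reads of Il34 per group.

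Csf1 with TGFb read 1423, 930, 1903 and 825 CPM in LacZ and 1774, 898, 1727 and 565 CPM in iCre. Each of the 8 libraries was above the SS library of its number, while the groups overlap. The difference was 0.82 ± 0.39 on the log2 scale in LacZ (edgeR, adjusted p = 0.081) and 0.80 ± 0.38 in iCre (adjusted p = 0.101). With the replicate block it was 0.74 ± 0.18 (adjusted p = 0.00106) and 0.71 ± 0.18 (adjusted p = 0.0019). Without iCre TGFb number 4 the iCre value was 1.04 (edgeR, adjusted p = 0.0315).

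The within-library ratio of Csf1 to Il34 per kilobase, a measure that no scaling between libraries touches and that was chosen after the levels were seen, sets the ligands of Csf1r beside each other. In LacZ SS libraries 1 to 4 it was 11.0, 15.2, 11.7 and 54.0. With IL-1b it was 56.3, 72.5, 63.0 and 125, and with TGFb 62.9, 40.3, 106 and 169. The ratio with bFGF was 12.1, 13.8, 10.9 and 53.3, close to SS number by number. Each IL-1b and TGFb library had a higher ratio than the SS library of its number, in 4 of 4 pairs under LacZ and 4 of 4 under iCre. An exact permutation test of 4 against 4 libraries, which ignores the pairs, passed for no stimulus. Adjusted over 6 tests, its p was 0.0571 for IL-1b under both vectors and for TGFb in iCre. In those comparisons the groups did not overlap at all. Their permutation p before adjustment was 0.0286, the smallest that 4 against 4 libraries can give. For TGFb in LacZ, where the groups overlap, the permutation test gave an adjusted p of 0.0857. Number 4 had the highest ratio in all 8 groups.

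With bFGF 0 of the 5 members were called under either vector, against 2.56% of all genes in LacZ (1.64% higher, 0.919% lower) and 2.2% in iCre (1.44% higher, 0.752% lower). Of all genes 10% and 7.74% had bFGF libraries that did not overlap SS, and 0 of the 5 members. Csf2 and Csf3, with 1 to 9 reads in each SS and bFGF group, were too close to 0 to be read against these shares. Kitl was nevertheless higher than SS in all 8 pairs. The LacZ bFGF libraries read 119, 118, 123 and 62.3 CPM and the iCre ones 121, 122, 145 and 43.4 CPM. Number 4 was low in both groups, and both groups overlap SS. Without the block the difference of Kitl was 0.82 ± 0.44 on the log2 scale in LacZ (edgeR, adjusted p = 0.360) and 0.68 ± 0.44 in iCre (adjusted p = 0.475). With the replicate block it was 0.90 ± 0.18 (adjusted p = 0.00236) and 0.68 ± 0.18 (adjusted p = 0.0151), the 1 member of 5 called in each vector against 12.2% and 11.4% of all genes. Csf1 and Il34 passed in neither fit with bFGF. The log2 differences without the block were 0.21 and 0.38 for Csf1 and 0.35 and 0.46 for Il34, LacZ first.

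**Figure D3:**
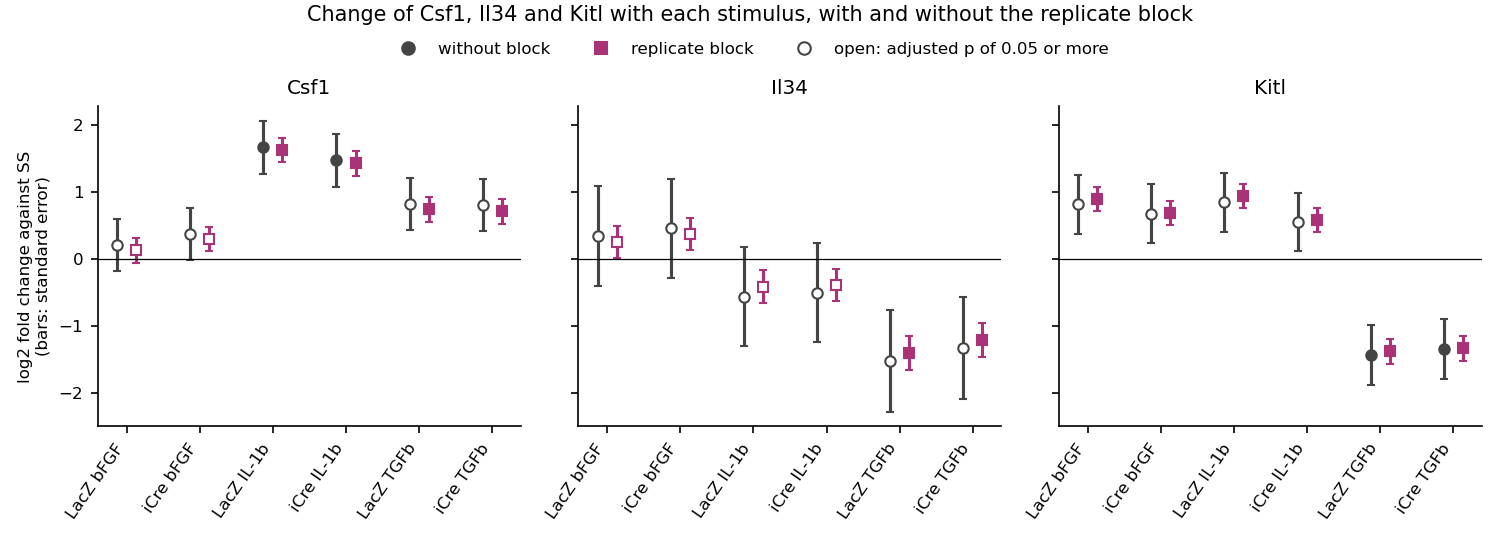
Log2 fold change of Csf1, Il34 and Kitl against SS of the same vector for each stimulus, with SE bars, from the fit without a block (circles) and with the replicate number as a block (squares). Open symbols did not pass an adjusted p of 0.05. The estimates nearly coincide between the fits, while the bars shorten: for Il34 with TGFb in LacZ, from 0.76 to 0.25.

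The order of group means for Csf1 was LacZ IL-1b (2279 CPM), iCre IL-1b (1972), LacZ TGFb (1270), iCre TGFb (1241), iCre bFGF (924), LacZ bFGF (832), LacZ SS (717) and iCre SS (711). For Il34 it was LacZ bFGF (23.0 CPM), iCre bFGF (19.6), LacZ SS (18.1), iCre SS (14.3), LacZ IL-1b (12.3), iCre IL-1b (10.1), LacZ TGFb (6.35) and iCre TGFb (5.69). For Kitl the mean levels ran from iCre bFGF (108 CPM) and LacZ IL-1b (108) through LacZ bFGF (106), iCre IL-1b (99.2), iCre SS (67.4), LacZ SS (59.9) and iCre TGFb (26.7) to LacZ TGFb (22.2). Neighbours in the order overlapped in all 7 steps of Csf1, Il34 and Kitl. For Csf2 and Csf3 the 2 IL-1b groups led, and the step from LacZ IL-1b down to the next group was the 1 of 7 without overlap.

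The replicate number was a large source of spread. Il34 ran from 1.78 to 4.82 CPM in the 8 number 4 libraries and from 5.29 to 37.1 CPM in the other 24, so the number 4 libraries lay below all others whatever the stimulus. Median Il34 was 19.1, 9.47, 20.5 and 3.14 CPM in numbers 1 to 4, and median Csf1 was 1279, 914, 1482 and 599 CPM. Kitl medians were 93.0, 72.8, 115 and 36.6 CPM. All 3 genes thus had the order 3, 1, 2, 4 by median. The summed leukocyte and macrophage markers had that order too, with medians of 616, 317, 126 and 69.5 CPM in numbers 3, 1, 2 and 4, and so had Csf1r, with 54.2, 27.5, 12.2 and 4.70 CPM. Number 4 was lowest by median for the fibroblast markers as well, with 30163 CPM against 41501 to 52671 in the other numbers. For the mural markers it was lowest too, with 192 against 307 to 505 CPM. This did not hold in each group: in LacZ TGFb number 4 had the highest sums of both lists, at 56999 and 444 CPM. The part of any of these cells in the levels of the ligands was not tested.

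By group the leukocyte sums overlapped, while within numbers they moved one way. They ran from 76.6 to 572 CPM in LacZ SS, from 111 to 716 in LacZ IL-1b and from 40.3 to 373 in LacZ TGFb. In iCre they ran from 69.2 to 738 in SS, from 112 to 1010 with IL-1b and from 35.6 to 518 with TGFb. Of the 13 markers tested, Mrc1 fell with TGFb in LacZ and Cd14 rose with IL-1b in iCre, and none was called with TGFb in iCre. Number by number, the sum was higher with IL-1b than in SS in 4 of 4 LacZ pairs, by 0.16 to 0.53 on the log2 scale, and in 4 of 4 iCre pairs, by 0.45 to 0.69. With TGFb it was lower in 4 of 4 LacZ pairs, by -0.99 to -0.62, and in 4 of 4 iCre pairs, by -0.96 to -0.51. With bFGF the sum was lower too, in 4 of 4 LacZ pairs, by -0.36 to -0.04, and in 4 of 4 iCre pairs, by -0.27 to -0.03. The higher sums stand beside the rise of Csf1, Csf2 and Csf3 with IL-1b and the lower ones beside the lower Il34 and Kitl with TGFb. Other changes went against the sums. Il34 was lower with IL-1b in 3 of 4 LacZ and 4 of 4 iCre pairs. Csf1 with TGFb and Kitl with bFGF were higher in 4 of 4 pairs under both vectors. The part of the leukocyte sums in any of these results was not tested.

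**Figure D4:**
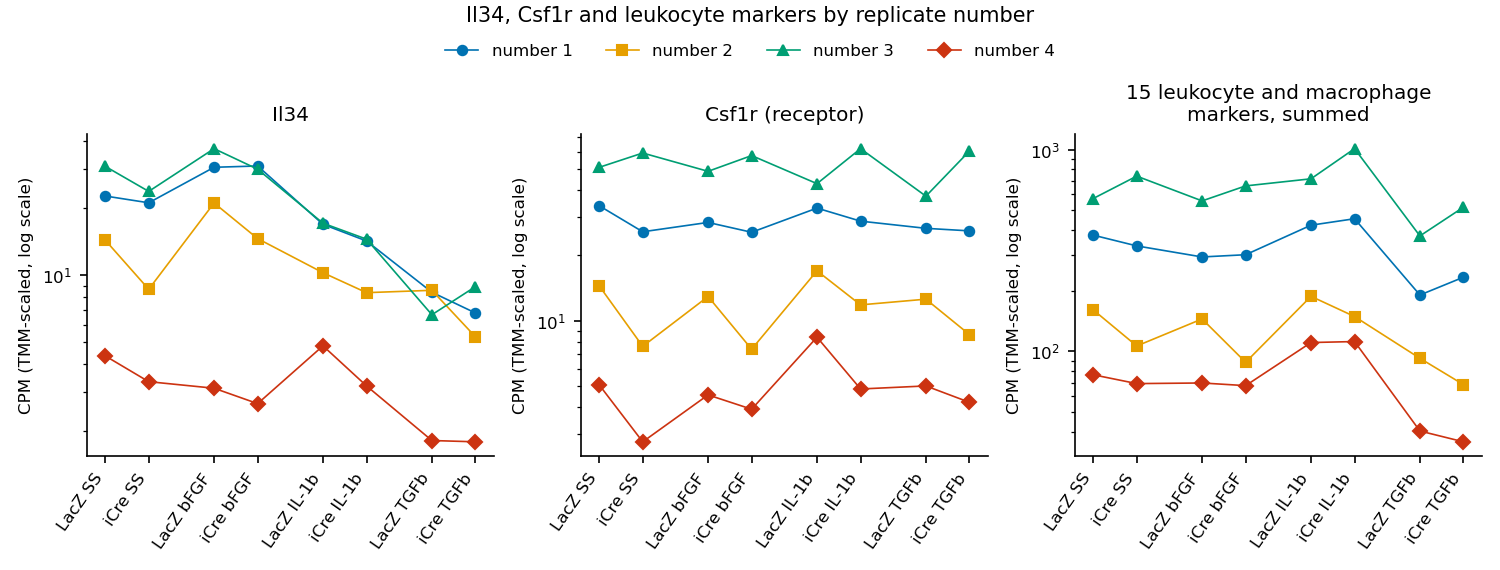
Il34, its receptor gene Csf1r and the sum of 15 leukocyte and macrophage markers, in CPM on log axes, for the 8 groups. Each line joins the 8 libraries of 1 number, and lines carry no time order. Number 3 lies highest for Csf1r (37.4 to 61.9 CPM) and number 4 lowest (2.77 to 8.39 CPM), and the same ends hold for the marker sum.

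iCre against LacZ called 0 of the 5 members in SS, bFGF, IL-1b and TGFb, where edgeR called 0% of all genes in each condition (317, 335, 251 and 526 genes at an unadjusted p under 0.05, and 0 called by DESeq2 in each). Of all genes 1.46%, 2.14%, 2.1% and 1.71% had iCre libraries that did not overlap the LacZ ones, and 0 of the 5 members in any condition. Outside IL-1b, Csf2 and Csf3 had 1 to 9 reads per group, too close to 0 to be read against these shares. Averaged over the 4 conditions 0.107% of all genes were called (0.0179% higher, 0.0895% lower) and none was a member. The 3 tests of whether a stimulus response differed between vectors also called 0 of all genes, with 67, 93 and 201 at an unadjusted p under 0.05 for bFGF, IL-1b and TGFb, and DESeq2 called 0.

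The average difference of iCre from LacZ was -0.03 ± 0.19 on the log2 scale for Csf1 (edgeR, adjusted p = 0.988) and 0.09 ± 0.22 for Kitl (adjusted p = 0.964). For Il34 it was -0.26 ± 0.37 (adjusted p = 0.938). Il34 was lower in the iCre library of the same number and condition in 14 of 16 pairs, Csf1 in 11 of 16 and Kitl in 6 of 16. The average of Il34 was -0.30 ± 0.12 with the replicate block (adjusted p = 0.226), and -0.28 ± 0.07 when each of the 16 pairs had its own term (adjusted p = 0.0248, where 5.86% of all genes were called). The 16 pairs come from 4 numbers, which that fit does not take into account. With counts summed over the conditions of a number, Il34 differed by -0.32 ± 0.08 (adjusted p = 0.239). With IL-1b Csf1 was lower in iCre in 4 of 4 pairs, by -0.10 to -0.65, and the test of that condition gave -0.21 ± 0.38 (edgeR, adjusted p = 1).

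In the IL-1b groups Csf2 differed between vectors by 0.55 ± 0.60 on the log2 scale and Csf3 by 0.42 ± 0.52 (edgeR, adjusted p = 1 for both). Csf2 was higher in iCre in 3 of 4 pairs and Csf3 in 2 of 4. The iCre libraries held 23 to 28 reads of Csf2 and the LacZ ones 7 to 23, ranges that meet at 23.

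**Figure D5:**
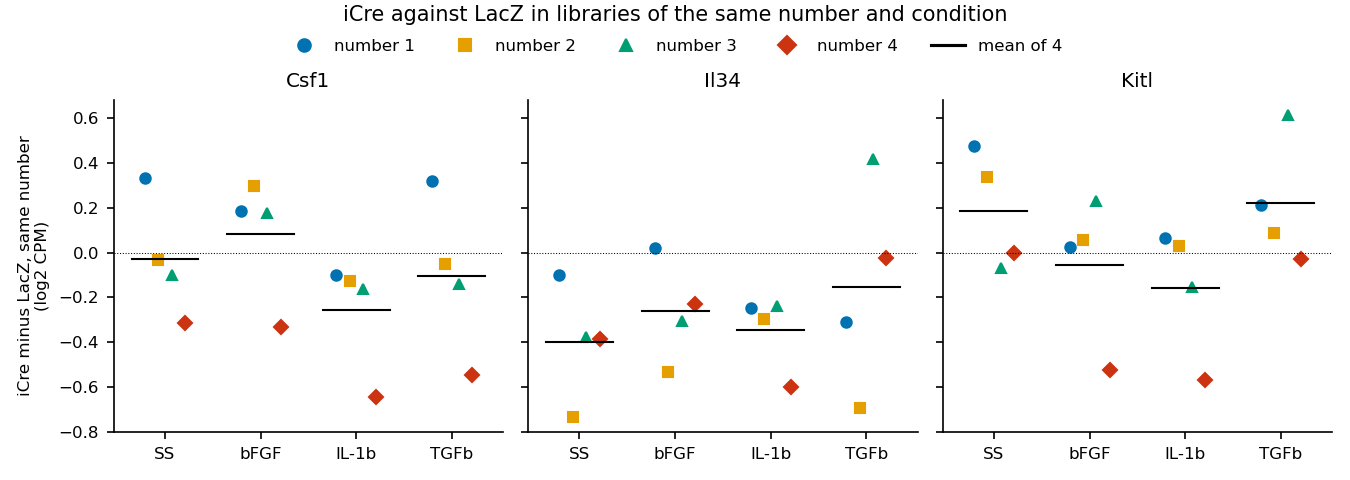
Difference of log2 CPM, iCre minus LacZ, between libraries of the same number and condition for Csf1, Il34 and Kitl. Each point is 1 pair by number and bars are means of 4 pairs. Il34 lies below 0 in 14 of 16 pairs, and number 4 gives the lowest value of Csf1 in all 4 conditions.

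Among the 8 receptor genes, all of which were tested, none rose with any stimulus. Csf1r averaged 20.4 to 26.8 CPM per group and was not called anywhere: its difference with IL-1b in LacZ was -0.04 ± 0.98 on the log2 scale (edgeR, adjusted p = 0.985). The Csf2 receptor chain Csf2ra averaged 10.8 to 19.5 CPM. Its partner Csf2rb was low, at 0.820 to 2.93 CPM, and Csf2rb2, the beta chain kept for interleukin-3 in the mouse, stood at 1.61 to 3.21 CPM. Csf3r, the receptor of Csf3, had 1 to 37 reads per group of 4 libraries.

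Kit, the receptor of Kitl, fell with IL-1b and with TGFb under both vectors. It averaged 3.03 ± 1.84 CPM in LacZ SS, 0.888 ± 0.423 with IL-1b and 0.133 ± 0.104 with TGFb (SD, n = 4). Kit fell by 1.77 ± 0.56 on the log2 scale with IL-1b in LacZ (edgeR, adjusted p = 0.0246) and by 1.87 ± 0.57 in iCre (adjusted p = 0.0229). With TGFb Kit fell by 4.44 ± 0.67 in LacZ (edgeR, adjusted p = 5.73e-06) and by 2.20 ± 0.58 in iCre (adjusted p = 0.00359). Kit held 1077 reads over the 32 libraries, with 1 library at 0. At 0.133 CPM in LacZ TGFb it was close to 0, so the size of that fall is uncertain. Kitl fell with TGFb beside its receptor, while the IL-1b value of Kitl was positive. The 6 mast cell markers, of cells that carry Kit, summed to 0.947 to 4.31 CPM in LacZ SS. In LacZ TGFb they summed to 0.0841 to 0.394 CPM. Mcpt4 and Hdc held most of their reads, with 405 and 371 over the 32 libraries. Cpa3 had 61 reads there, Tpsab1 9, Ms4a2 8 and Tpsb2 0, so the sum rests mainly on Mcpt4 and Hdc. Any part of mast cells in the fall of Kit was not tested.

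Sdc1, a surface proteoglycan that also binds the Il34 protein, averaged 247 ± 62.3 CPM in LacZ SS. Sdc1 fell by 0.81 ± 0.16 on the log2 scale with bFGF in LacZ (edgeR, adjusted p = 0.00694) and by 0.72 ± 0.16 in iCre (adjusted p = 0.0176). With TGFb Sdc1 fell by 0.76 ± 0.16 (adjusted p = 0.000297) and by 0.61 ± 0.16 (adjusted p = 0.00304). Ptprz1, a further receptor reported for Il34, averaged 0.341 to 1.73 CPM and was not called.

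Of 15 other growth factors and cytokines of blood cells, 11 were tested, and with IL-1b in LacZ 3 rose and 3 fell. The list median was 1.04 on the log2 scale against -0.02 over all genes. Il6, which shares its induction by IL-1b with the colony-stimulating factors in textbook accounts, rose by 5.37 on the log2 scale in LacZ and by 4.89 in iCre (edgeR, adjusted p = 4.0e-07 and 1.5e-06). Lif, a cytokine of the same receptor family, rose by 3.11 in LacZ (adjusted p = 1.3e-05) and was called in iCre too (adjusted p = 2.5e-05). Tnfsf11, or RANKL, which with Csf1 drives osteoclast formation, rose by 3.90 in LacZ and by 4.40 in iCre (adjusted p = 0.0107 and 0.00573). In iCre 3 rose and 2 fell with IL-1b. With TGFb 3 rose and 4 fell under both vectors, and Il6 rose there too, by 3.65 and 3.17, as did Lif, by 4.12 and 3.78, whereas Csf2 and Csf3 stayed at 4 reads or fewer per TGFb group.

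Of 18 transcription factors of the NF-kB, C/EBP, AP-1 and Ets families, 11 rose and 1 fell with IL-1b under each vector. In LacZ their median was 1.08 on the log2 scale against -0.02 over all genes. Relb and Nfkb2, NF-kB subunits, rose by 1.85 and 1.40 on the log2 scale, and the inflammatory C/EBP factor Cebpd by 2.13 (edgeR, adjusted p = 1.7e-10, 1.3e-08 and 2.8e-08). The same list had 7 higher and 2 lower with TGFb in LacZ and 2 and 2 in iCre. With bFGF 3 rose and 0 fell under each vector.

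Of 10 regulators of unstable cytokine messages, 1 rose with IL-1b in LacZ, and 1 rose and 1 fell in iCre. Zc3h12a, the RNase Regnase-1 that cuts cytokine messages, went from 9.82 ± 0.895 to 180 ± 27.9 CPM in LacZ (SD, n = 4). It rose by 4.20 on the log2 scale in LacZ and by 4.27 in iCre (edgeR, adjusted p = 5.7e-13 and 4.8e-13). Elavl1, or HuR, a protein that stabilises AU-rich messages, differed by 0.21 with IL-1b in LacZ (adjusted p = 0.14) and Hnrnpd, or AUF1, by 0.37 (adjusted p = 0.18). With TGFb, 3 rose and 2 fell under each vector, Elavl1 by 0.84 in LacZ among the former.

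Of 18 genes that carry the receptors' signals, 6 rose and 0 fell with IL-1b under each vector. Jak2, the kinase bound to the Csf2 receptor, rose by 1.90 on the log2 scale in LacZ (edgeR, adjusted p = 1.3e-12), Stat3 by 0.77 (adjusted p = 0.000204) and Jak1 by 0.58 (adjusted p = 0.0007). With TGFb 1 rose and 4 fell in LacZ and 2 rose and 3 fell in iCre. Of 7 tested proteases that release membrane-held factors, 2 rose with IL-1b under each vector. Adam17, which cuts Csf1 and other factors from the cell surface, rose by 0.85 in LacZ (adjusted p = 5.5e-06), and Mmp9 by 2.56 (adjusted p = 0.0077). Adam17 fell with TGFb by 0.72 in LacZ and by 0.59 in iCre. Adam9 differed by 0.32 with IL-1b in LacZ (adjusted p = 0.553).

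Over the 32 libraries, the tested genes whose log2 CPM was most like each member were listed by Pearson's r, as a description, since libraries share stimulus, number and depth. Csf3 was closest to Saa3 (0.986) and Lcn2 (0.978), acute-phase proteins, and to Vnn3 (0.974). Saa3 went from 2.33 ± 0.470 CPM in LacZ SS to 1321 ± 731 with IL-1b, and Lcn2 from 4.37 ± 3.52 to 1513 ± 74.4 (SD, n = 4). Csf2 was closest to Nos2 (0.952), Zc3h12a (0.945) and Gng12 (0.945). By Spearman's rho none of these 6 was among the 3 most like genes.

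Csf1 was closest to Grk2 (0.947), a kinase of G protein-coupled receptors, Slc10a3 (0.939) and Traf3 (0.937), an adaptor of the NF-kB pathway. Traf3 went from 52.0 ± 11.2 CPM in LacZ SS to 108 ± 12.4 with IL-1b and 77.2 ± 22.2 with TGFb, so that the IL-1b groups were highest and the SS groups lowest, as for Csf1. Il34 was closest to S100a4 (0.948), Lrp5 (0.946), a Wnt co-receptor, and Taok3 (0.945). Kitl was closest to Rapgef5 (0.960), the ubiquitin ligase Nedd4l (0.953) and the hypoxia factor Epas1 (0.946). Rapgef5 averaged 33.7 ± 20.7 CPM in LacZ SS, 3.38 ± 2.18 with TGFb and 88.5 ± 39.5 with bFGF, and its lowest groups, as those of Kitl, were the TGFb ones. By Spearman's rho 2 of the 3 genes stayed among the 3 most like for Csf1 (Grk2 did not) and for Kitl (Epas1 did not), and 0 of 3 for Il34.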

How the data were processed

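The deposited table holds raw counts per Ensembl gene for 32 libraries. Per the submitters' processing notes, reads were checked with FastQC 0.10.1 and counted with HTSeq 0.10.0 against mm10/GRCm38. For the aligner, strand setting and annotation release, nothing is stated in the material at hand. Symbols, coordinates and transcripts come from GENCODE M21 (52133 of 55414 IDs, 99.77% of counts), upstream sequence from RefSeq on GRCm38.p6. Each column belonged to 1 sample and 0 were without one. Exon length is the union over transcripts.

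The tests used edgeR 4.0.16 under R 4.3.3: TMM scaling, its filter on low counts by group, and robust quasi-likelihood fits. A single model of all 32 libraries held 8 group means. The 14 contrasts were two-sided, with Benjamini-Hochberg adjustment over 16760 genes and a threshold of 0.05. The scripts were tested on simulated data. Count ratios near 0 have exact intervals. Levels are CPM. Log2 CPM had a prior count of 2 in the pairing check and in the search for the most like genes. Pair differences of the members add a smaller constant to each count, and those of the summed markers add none. Python 3.11.15 and matplotlib 3.10.9 made the figures.

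The members, the 14 other lists and the genes Nos2, Spry4 and Pmepa1 were chosen with earlier results of these data known. Named genes are the members, the receptors, Pkm, Nos2, Spry4, Pmepa1, up to 3 genes per list with the smallest p for IL-1b in LacZ, and the 3 genes most like each member (average log2 CPM of at least 1, no predicted genes). Lyz2, Cd3e, Cd79a, Mrc1, Cd14, the mast cell markers, Il3 and the antisense genes were added after their values were seen.

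To check the pairing, each library's deviation from its group mean was correlated with that of its namesake in the other group. The 40 correlations lay between 0.153 and 0.857, all above 0.1, so libraries were treated as paired by number. Libraries of different numbers were not correlated for comparison. The block was an alternative, as were DESeq2 1.42.0, other scalings and filters, a block per pair, summed counts, fits without number 4 and fits without each library.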

Additional observations from a re-analysis of the deposited data

Results flagged for a closer look

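Kitl in LacZ bFGF number 4 stood at 62.3 CPM, while the other 3 libraries of that group had 118 to 123 CPM. Its gap to the nearest of them, relative to the range of the group, was above Dixon's 95% critical value for 4 samples. It was the 1 flag among 28 groups of values examined, where chance alone flags about 1 in 20. Number 4 was also the lowest library for Kitl in the other 7 groups.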

How the results depend on the processing

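The IL-1b rise of Csf1, Csf2 and Csf3 kept its call in each fit that left out 1 library and without number 4. A stricter filter on low counts removes Csf2 and Csf3 by construction, which left 1 member called with IL-1b in LacZ and 1 in iCre. With the replicate block, members called were 1 for bFGF in LacZ, 1 for bFGF in iCre, 3 for TGFb in LacZ and 3 for TGFb in iCre, and without number 4 they were 3 and 3 for TGFb, where 52.6% and 48.5% of all genes were called. The pair block called 1 member in the average of iCre against LacZ. The replicate block also moved counts over all genes: 429 to 2048 (bFGF) and 3216 to 5418 (IL-1b) in LacZ, 368 to 1916 and 2634 to 4868 in iCre, and 18 to 475 for the vector average, which was 982 with the pair block, 85 in DESeq2, 114 without number 4 and 9 with summed counts. With bFGF in LacZ and iCre, DESeq2 called 838 and 843 genes, edgeR with no filter on low counts 212 and 190, and edgeR without number 4 called 1638 and 2621. Without number 4 IL-1b called 4874 and 4280. Pair blocks called 14, 15, 0 and 46 genes for iCre against LacZ in SS, bFGF, IL-1b and TGFb, and the replicate block 0, 1, 0 and 5. Kitl with IL-1b was called with the replicate block under both vectors, and in LacZ also without number 4 (0.77, edgeR, adjusted p = 0.0402). No other call of a member changed with the block.

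Members called with TGFb ran from 0 to 1 in LacZ (0 without LacZ SS number 3) and from 0 to 1 in iCre (0 without iCre SS number 3) with 1 library left out. Small vector differences changed sign with the setting. Csf1 in SS was 0.0173 with total counts only and 0.058 without number 4, Csf1 in TGFb 0.0337 and its average 0.0453 without number 4. Kitl in bFGF was -0.0495 with either block, and its average -0.0256 with summed counts.

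With each library left out in turn, iCre minus LacZ ran as follows on the log2 scale. Csf1 ran from -0.151 to 0.172 in SS, -0.056 to 0.420 in bFGF, -0.373 to 0.00379 in IL-1b, -0.257 to 0.228 in TGFb and -0.0818 to 0.0395 on average. Its response differences ran from -0.0383 to 0.438 for bFGF, -0.381 to 0.0215 for IL-1b and -0.245 to 0.240 for TGFb. Csf3 in IL-1b ran from -0.103 to 0.756. Il34 ran from -0.711 to 0.0438 in SS, -0.600 to 0.133 in bFGF, -0.552 to 0.0121 in IL-1b and -0.471 to 0.141 in TGFb, with response differences from -0.277 to 0.484, -0.330 to 0.427 and -0.204 to 0.551. Kitl ran from -0.0908 to 0.595 in SS, -0.154 to 0.292 in bFGF and -0.364 to 0.152 in IL-1b, with response differences from -0.565 to 0.128 for bFGF and -0.330 to 0.358 for TGFb. The cause of these sign changes was not tested. Depth limits Csf2 and Csf3 outside IL-1b.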
